A study of Mus musculus with 2 samples.

Results

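The clock output regulators are 9 genes that carry timing from the circadian oscillator to the metabolic genes of the liver or trim the oscillator itself: Dbp, Tef, Hlf, Nfil3, Bhlhe40, Bhlhe41, Ciart, Rora and Usp2. They were chosen by name, for their known roles but with earlier results of these data known, from the 53241 distinct gene symbols measured. Each of the 9 had 1 row in both libraries. The data were poly(A)-selected, strand-specific RNA sequencing of total RNA from mouse liver, with 1 control and 1 iFIRKO library. The iFIRKO mice were Adipoq-CreERT2; Insr flox/flox. In them the adiponectin promoter drives a Cre recombinase that tamoxifen switches on, which deletes the insulin receptor gene Insr in fat cells, and hepatocytes are not its target. The labels called the control wild type, whereas the study's methods gave Insr flox/flox mice without Cre, and this difference could not be settled here. Both groups were male mice of 7 weeks on free diet and a light and dark cycle, given tamoxifen at 100 mg/kg by intraperitoneal injection on 5 days, with liver taken 3 days after the last dose. Whether each library came from 1 animal or a pool was not stated.

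The oscillator is a loop of transcription factors. BMAL1 (gene Arntl) with CLOCK or NPAS2 binds E-boxes and drives the period and cryptochrome genes, whose proteins then block that drive, and it also drives many of the output regulators. DBP, TEF and HLF, the PAR bZIP factors (named for a region rich in proline and acidic residues), activate genes through D-boxes, and NFIL3 represses through the same element. BHLHE40, BHLHE41 and CIART repress E-box genes, RORA activates through ROR elements (ROREs), where the REV-ERB proteins repress, and USP2 removes ubiquitin from clock proteins. In liver, PAR bZIP factors are known for driving detoxification and heme synthesis genes, and transcripts of this group peak at set hours of the day.

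With 1 library in each group there was no replicate, so no difference below could be set against the spread between animals and no test of genotype was made. The hour at which each liver was taken was not given in the sources used here, so an hour that differed and the genotype cannot be told apart for these rhythmic transcripts. Values are normalized reads: the deposited values were on a log2 scale and were returned to a linear one. The control library summed to 42003900 normalized reads, an estimated 21.1 M read pairs, and the iFIRKO library to 41579630, an estimated 20.7 M (M is 1000000). A log2 fold change is iFIRKO over control, computed after adding 4.18 normalized reads (a CPM, or reads per 1000000, of 0.1) to both values. Its 95% interval is exact (Clopper-Pearson) on estimated read pairs, covers counting error only, and compares the 2 libraries, not the genotypes. The comparison took in 13400 genes, those that reached 41.8 normalized reads (a CPM of 1) in the control, the iFIRKO library or both, and a gene was called higher or lower in the iFIRKO library past a fold of 1.5. The median over these genes was 0.008. Insr itself was read at 4246 in the control and 3692 in the iFIRKO liver (log2 fold change -0.20, interval -0.29 to -0.11), which does not check a deletion aimed at fat cells.

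Among the 9 regulators, Ciart was higher and Dbp was lower in the iFIRKO library, and the other 7 did not pass the fold, with log2 fold changes from -0.40 to 0.39. Their median was -0.02, with 4 values above 0 and 5 below. Of all genes compared, 4.46% were higher and 7.28% were lower, so 1 member each way among 9 is near the background. All 9 passed the minimum, Dbp through the control library alone. Bhlhe40, Nfil3, Rora, Hlf, Tef and Usp2 lay above 700 normalized reads in both libraries, while Dbp, Bhlhe41 and Ciart lay below 150 in both. The 2 members past the fold were thus among the 3 least abundant. Below a CPM of 5 (209 normalized reads) in both libraries, 9.49% of genes were higher and 16.5% lower. At or above that level in 1 or both, the shares were 2.84% and 4.34%.

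**Figure D1:**
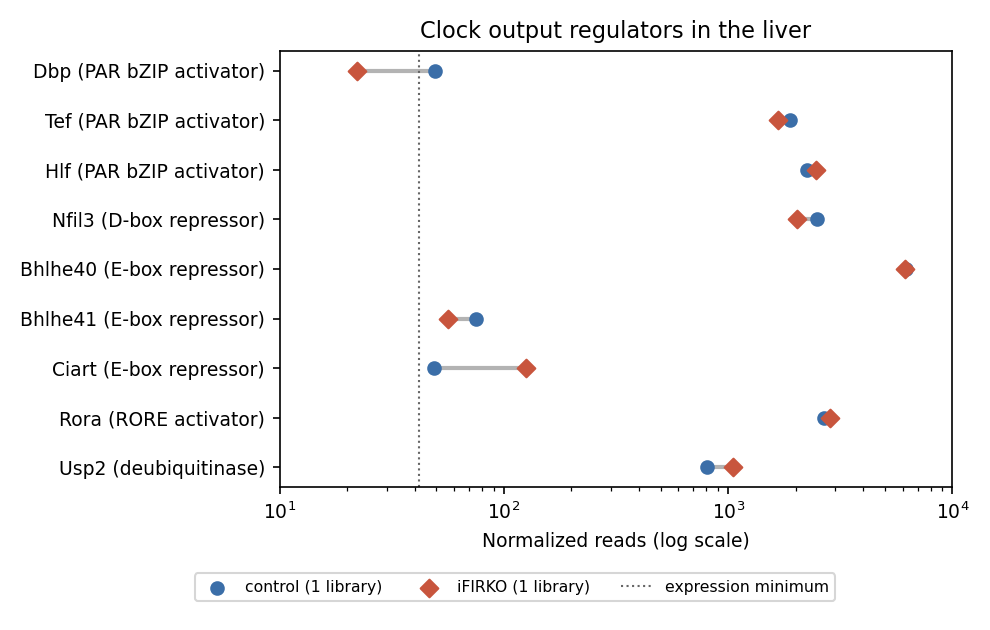
Normalized reads of the 9 clock output regulators on a log axis, 1 point for the control library and 1 for the iFIRKO library. Bhlhe40 is the most abundant, at 6228 and 6135, and only the points of Dbp and Ciart are past a fold of 1.5 apart, in opposite directions.

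Per kilobase of annotated exon, a rough basis for comparing levels between genes, Bhlhe40 stood highest in the control library at 1324 normalized reads per kb. Nfil3 followed at 1229. The length used is the union of exons over all annotated transcripts, and which of these the livers expressed was not measured. The order of close values may therefore depend on it. These neighbours had overlapping exact Poisson 95% intervals, 1278 to 1371 and 1162 to 1299. Hlf at 337, Tef at 241, Rora at 204 and Usp2 at 167 normalized reads per kb formed a middle group in the control. Each was clear of the next by its counting interval, which does not cover the choice of length. Ciart at 21.6, Dbp at 16.4 and Bhlhe41 at 11.2 closed the order, with intervals that overlapped between neighbours (14.2 to 32.4, 10.7 to 24.5 and 7.95 to 15.4). In the iFIRKO library Bhlhe40 led at 1304 per kb and Nfil3 followed at 1002, with intervals that did not overlap (1258 to 1351 and 942 to 1067). Usp2 at 219, Rora at 217 and Tef at 212 normalized reads per kb then had overlapping intervals below Hlf at 370. Ciart stood alone at 55.5 per kb in the iFIRKO liver, with an interval of 42.3 to 70.8, above Bhlhe41 at 8.39 and Dbp at 7.4.

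The stretches below hold the clock elements found near the starts of the members, shown because several of the regulators are themselves E-box or RORE genes. They come from RefSeq promoter entries on GRCm38.p6, which run from 250 bases before to 50 after a start. Of the 9 members 8 had an entry, Tef had 2, and Bhlhe40 had none. The elements searched, on both strands, were the E-box CACGTG, the E-prime box CACGTT, the D-box TTANGTAA and the RORE core TAGGTCA. No matches in members overlapped each other. Each stretch reads 5′ to 3′ on the strand of its gene, with the match in capitals.
Ciart, chr3:95882256-95882355, minus strand: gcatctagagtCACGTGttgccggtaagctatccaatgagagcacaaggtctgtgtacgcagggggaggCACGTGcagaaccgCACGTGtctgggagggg
Tef first start, chr15:81802535-81802562, plus strand: tgctgtggctcCACGTGctgcagctggc
Tef second start, chr15:81811265-81811292, plus strand: acctggcccagCACGTGtctacatcgtt
Bhlhe41, chr6:145865557-145865584, minus strand: ggtacgttccgCACGTGagctgggtgct
Nfil3, chr13:52981034-52981062, minus strand: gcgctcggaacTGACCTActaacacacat
Ciart, the member that was higher, held 3 E-boxes, which began 116, 58 and 44 bases before its start. Of the 32851 mouse entries, 29 (0.0883%) held 3 or more, and this feature was picked out after the values were seen. An E-box occurred in 7.15% of all entries, and 3 of the 8 members with an entry held one: Ciart, Tef (127 and 138 bases before its starts) and Bhlhe41 (153 bases before). In Nfil3 the RORE core, found in 2.61% of entries, lay on the opposite strand 12 bases before the start, so that its reverse complement is printed. By GENCODE the Nfil3 stretch and the stretch of the first Tef start lay within annotated exons of their genes, whereas those of Ciart and of the second Tef start shared no base with one. The E-prime box and the D-box occurred in 4.68% and 2.32% of entries and in none of the members, and Dbp, Hlf, Rora and Usp2 held none of the 4 elements in these windows. A match is a description of the letters, and binding was not measured.

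**Figure D2:**
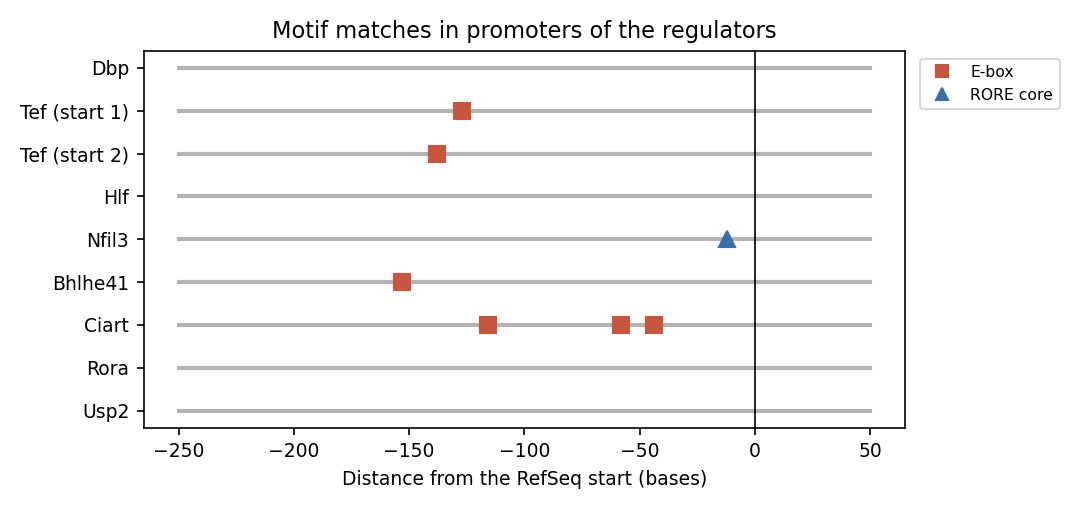
Positions of the 4 searched elements in the RefSeq promoter entries of the members, in bases from the start (start at 0). Ciart shows 3 E-boxes within 116 bases of its start, and each Tef entry and Bhlhe41 show 1.

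The PAR bZIP activators did not move as one. Dbp, whose transcript has among the steepest daily cycles in liver, had 49.22 normalized reads in the control and 22.15 in the iFIRKO library, an estimated 25 and 11 read pairs. It was lower, with a log2 fold change of -1.02 and an interval from -2.34 to -0.09, at the 1.8 percentile of all log2 fold changes. With a pseudocount of CPM 1 the value was -0.51, short of the fold, and Dbp was not compared where the minimum had to be met in both libraries. Its level in these libraries was very low, at the 0.8 percentile of the genes compared. The gene lies at chr7:45705088-45710203 on the plus strand (GRCm38, 5 transcripts), and 539 of its 2993 exon bases also belong to exons of Sphk2 on the opposite strand. Sphk2, a sphingosine kinase gene, was read at 2078 and 1668 (log2 fold change -0.32). Whether the authors' counting used strand was not given in the sources used here, and the part of Sphk2 reads in the values of Dbp was not tested.

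Tef, a PAR bZIP factor with a shallower cycle, had 1893 and 1671 normalized reads, a log2 fold change of -0.18 (interval -0.32 to -0.04). Hlf, the third of these activators, had 2250 and 2474, a log2 fold change of 0.14 (0.02 to 0.26). Neither passed the fold, although their values lay on opposite sides of 0 and neither interval held it at the main scaling. Scaling to hepatocyte markers gave -0.091 and 0.225, and scaling by the median ratio of the genes gave -0.204 and 0.112. The near ends of the intervals lie so close to 0 that such shifts matter, and the intervals were not recomputed under them. Tef lies at chr15:81802421-81826863 on the plus strand and Hlf at chr11:90336536-90390895 on the minus strand. The ratio of Hlf to Tef reads was 1.19 in the control and 1.48 in the iFIRKO library, a log2 difference of 0.32 (exact interval 0.14 to 0.50) that restates these 2 values. Summed over Dbp, Tef and Hlf, the activators had 4192 and 4167 normalized reads, a log2 fold change of -0.01 (-0.10 to 0.08). The sum was nearly level because the lower value of Tef and the higher value of Hlf offset each other. Dbp contributed few reads to it.

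Nfil3, the repressor at the same D-boxes, had 2490 normalized reads in the control and 2031 in the iFIRKO library. Its log2 fold change was -0.29 (-0.41 to -0.17), below 0 but short of the fold, at the 17.7 percentile of all genes compared. The gene lies at chr13:52967209-52981073 on the minus strand, with 1 annotated transcript and no overlapping gene. The summed reads of the 3 activators stood at 1.68 times those of Nfil3 in the control and 2.05 times in the iFIRKO library, a log2 difference of 0.29 (exact interval 0.13 to 0.44). That shift came from the value of Nfil3, since the sum of the activators was nearly level.

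The E-box repressors ranged from the most abundant member, Bhlhe40, to Bhlhe41 and Ciart, which lay below 150 normalized reads in both libraries. Ciart, a repressor of BMAL1 and CLOCK activity also known as CHRONO, had 48.93 normalized reads in the control and 125.4 in the iFIRKO library, an estimated 25 and 62 read pairs. It was higher, with a log2 fold change of 1.29 (interval 0.64 to 2.06) at the 99.3 percentile of all genes compared. The plain ratio of the values was 2.56 (1.56 to 4.17), and it was 2.44 with the pseudocount. Ciart did not reach a minimum of CPM 5, so it was not compared under that setting. The gene lies at chr3:95878503-95882251 on the minus strand. The antisense gene C920021L13Rik overlaps its span without sharing exon bases and was read at 12.38 and 9.288. In the control Ciart and Dbp had almost the same reads, a ratio of 0.994, whereas in the iFIRKO library Ciart stood at 5.66 times Dbp. This log2 difference of 2.51 (exact interval 1.17 to 3.86) restates the 2 calls and is no added evidence, and the pair was chosen after its values were seen.

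Bhlhe40 (DEC1), a basic helix-loop-helix repressor that also responds to hypoxia and nutrients, had 6228 and 6135 normalized reads, a log2 fold change of -0.02 (-0.09 to 0.05). It was the most deeply read member, with an estimated 3134 and 3047 read pairs, and its interval held no change. Its relative Bhlhe41 (DEC2) had 75.51 and 56.37, a log2 fold change of -0.40 (-1.18 to 0.32). With an estimated 38 and 28 read pairs, a difference of that size in Bhlhe41 was not detectable at this depth. Summed over Bhlhe40, Bhlhe41 and Ciart, the E-box repressors had 6353 and 6317 normalized reads, a log2 fold change of -0.01 (-0.08 to 0.06). Bhlhe40 made up most of that sum, and the higher value of Ciart offset part of the lower values of Bhlhe40 and Bhlhe41. Bhlhe40 lies at chr6:108660629-108666925 on the plus strand and Bhlhe41 at chr6:145858243-145865558 on the minus strand. Bhlhe41 shares 1280 exon bases with Gm43909 on the opposite strand, which was listed at 0 in both libraries.

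Rora, the RORE activator, had 2664 normalized reads in the control and 2834 in the iFIRKO library. Its log2 fold change was 0.09, and the interval (-0.02 to 0.20) held no change. The gene spans chr9:68653786-69388246 on the plus strand, the longest span of the 9. Usp2, the deubiquitinase, had 803.8 and 1055 normalized reads. Its log2 fold change of 0.39 (0.20 to 0.58) stood second to Ciart among the members and at the 90.9 percentile of all genes compared, yet short of the fold. Usp2 lies at chr9:44067021-44095627 on the plus strand. Of its 4818 exon bases, 200 are shared with each of 2 genes annotated on the opposite strand, Gm49380 and Gm39325. Neither had a row under these names in the libraries.

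**Figure D3:**
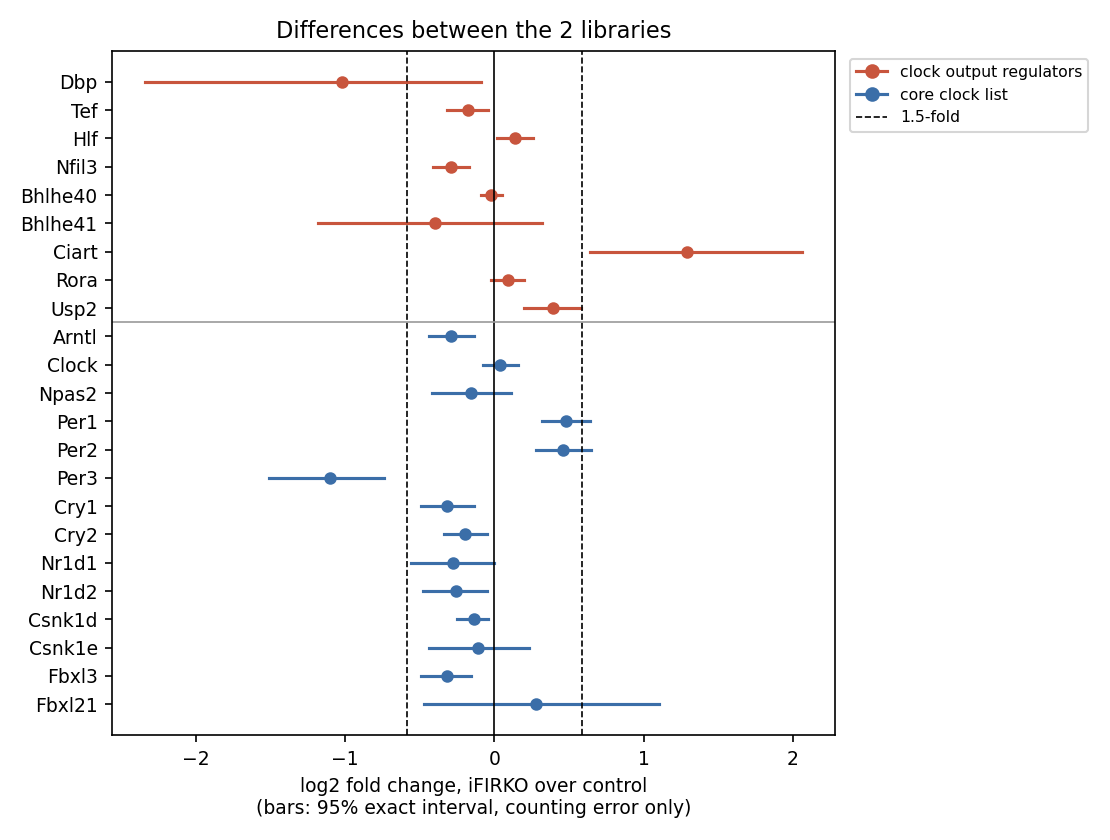
Log2 fold change (iFIRKO over control) of each clock output regulator (red) and of the 14 core clock genes (blue), with bars for the 95% counting interval and lines at the 1.5-fold limits. Ciart at 1.29 and Dbp at -1.02 lie outside the limits, and the intervals of Bhlhe40, Bhlhe41 and Rora cross 0.

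**Figure D4:**
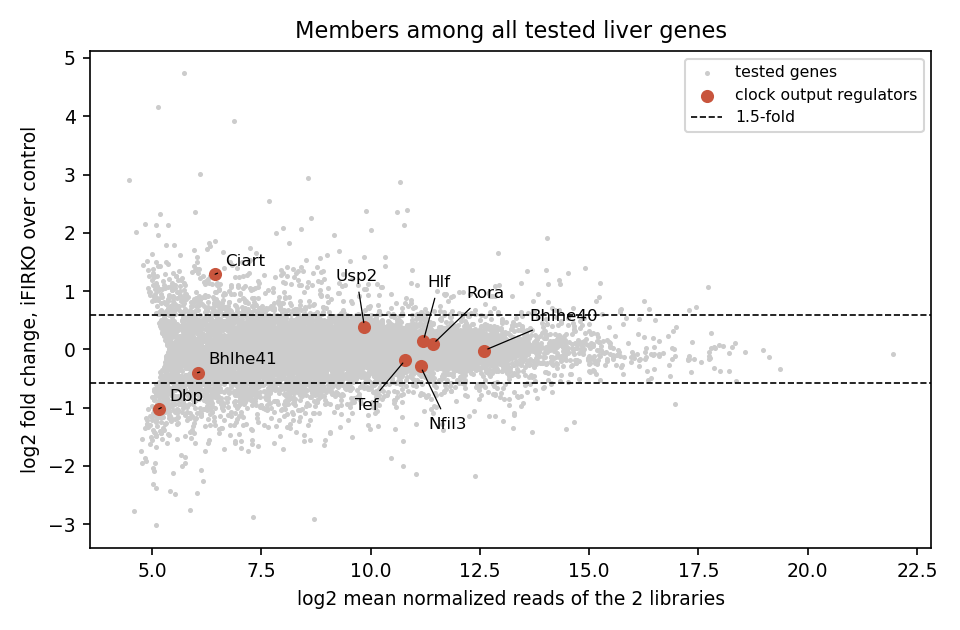
Log2 fold change against mean level for the 13400 genes compared (grey), with the 9 members named. The spread widens at low level, where Dbp, Bhlhe41 and Ciart lie. The 6 abundant members lie within the 1.5-fold limits, from -0.29 (Nfil3) to 0.39 (Usp2).

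The oscillator genes upstream of these regulators also lay on both sides of 0. Of the 14 core clock genes compared, none was higher and 1 was lower, with a median log2 fold change of -0.18, 4 values above 0 and 10 below. Over all genes compared 4.46% were higher and 7.28% were lower, so 1 of 14 lower is near the background. Per3, a period gene, was the one past the fold, with 370.9 normalized reads in the control and 170.2 in the iFIRKO library (-1.10, interval -1.51 to -0.74). Csnk1d, a casein kinase gene whose product phosphorylates period proteins, was the most abundant of the others, with 3123 and 2825 (-0.14). The remaining genes named here were chosen after their values were seen: Per1 had 1149 and 1602 (0.48), Per2 had 797.8 and 1100 (0.46), and Arntl had 1680 and 1372 (-0.29). Per1 and Per2 thus had log2 fold changes close to that of Usp2, on the other side of 0 from Per3. Like Usp2, neither passed the fold.

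Elements in the core clock promoters are shown for the gene past the fold and for the one that held a RORE core, picked after the values were seen. In capitals are the D-boxes of Per3 and the RORE core of the second Arntl entry.
Per3, chr4:151044805-151044881, minus strand: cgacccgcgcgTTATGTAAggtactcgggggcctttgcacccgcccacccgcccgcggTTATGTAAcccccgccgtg
Arntl, chr7:113207530-113207558, plus strand: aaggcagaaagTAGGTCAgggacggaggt
Per3 held 2 D-boxes, the element that DBP, TEF, HLF and NFIL3 bind, and 27 of all entries (0.0822%) held 2 or more. Of the 11 core clock genes with an entry, 1 held a D-box, 2 an E-box, 3 an E-prime box and 1 a RORE core. The Arntl match lay after the start, in an annotated exon.

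Genes known to peak at the same hours as members gave no single direction. The 10 genes with a late-day or evening peak, among them Dbp, Tef, Hlf, Ciart and Usp2, had a median log2 fold change of -0.02, with 5 above 0 and 5 below. Of these, 1 was higher (Ciart) and 2 were lower (Dbp and Per3), against 4.46% and 7.28% over all genes compared. The 5 genes with a peak near dawn, Nfil3 among them, had a median of -0.29, with 1 above 0 and none past the fold, so the evening median stood 0.27 above that of dawn. The gap was 0.43 with the minimum required in both libraries, which leaves out Dbp. The 5 RORE genes, which the REV-ERB proteins and RORA act on, had 1 value above 0 and 4 below (-0.32 to 0.04, median -0.28), and none passed the fold. All 5 are also in the core clock list and 4 of them in the dawn list, so these lists share values. Clock was the one above 0, at 0.04.

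Known targets of the PAR bZIP factors moved in both directions. Of 8, 1 was higher and 2 were lower, with a median of -0.08, against 4.46% and 7.28% over all genes compared. All 8 lay above a CPM of 5, and among genes at that level in 1 or both libraries the shares were 2.84% and 4.34%. The list was chosen with earlier results of these data known, so no excess over these shares can be read from it. With a fold of 2 none of the 8 was called. Alas1, the rate-limiting enzyme of heme synthesis in liver, had 9983 and 19261 normalized reads (0.95). Cyp2b10, a drug-metabolizing cytochrome, had 5755 and 3346 (-0.78), and Cyp7a1, the rate-limiting enzyme of bile acid synthesis, had 6698 and 4351 (-0.62, and -0.53, short of the fold, with hepatocyte marker scaling). The summed reads of the activators were nearly level and the repressor Nfil3 was at -0.29. A link from these transcripts to Alas1, or to Cyp2b10 and Cyp7a1, which went the other way, was not tested. Cyp2a5, the most abundant of those not past the fold, had 16441 and 15037 (-0.13) and is close in sequence to Cyp2a4 (0.16), so that their reads may have been split between them.

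Other liver genes with a known daily rhythm also differed in both directions. Of 12, 4 were higher, 2 were lower and 6 did not pass the fold, with a median of 0.22, against 4.46% higher and 7.28% lower over all genes compared. Nearly all of the list reached a CPM of 5 in 1 or both libraries, where the shares were 2.84% and 4.34%. This list too was chosen with earlier results of these data known, so no excess can be read from its counts. Elovl3, a fatty acid elongase, had 304.8 and 1606 normalized reads (2.38), and Noct, a phosphatase whose transcript cycles in liver, had 784.2 and 1659 (1.08). Upp2, a uridine phosphorylase, had 13685 and 6236 (-1.13), and Rgs16, a regulator of G protein signalling, had 3761 and 1767 (-1.09). These 4 lay farthest from 0 in the list, and Elovl3 alone lay farther from 0 than Ciart.

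**Figure D5:**
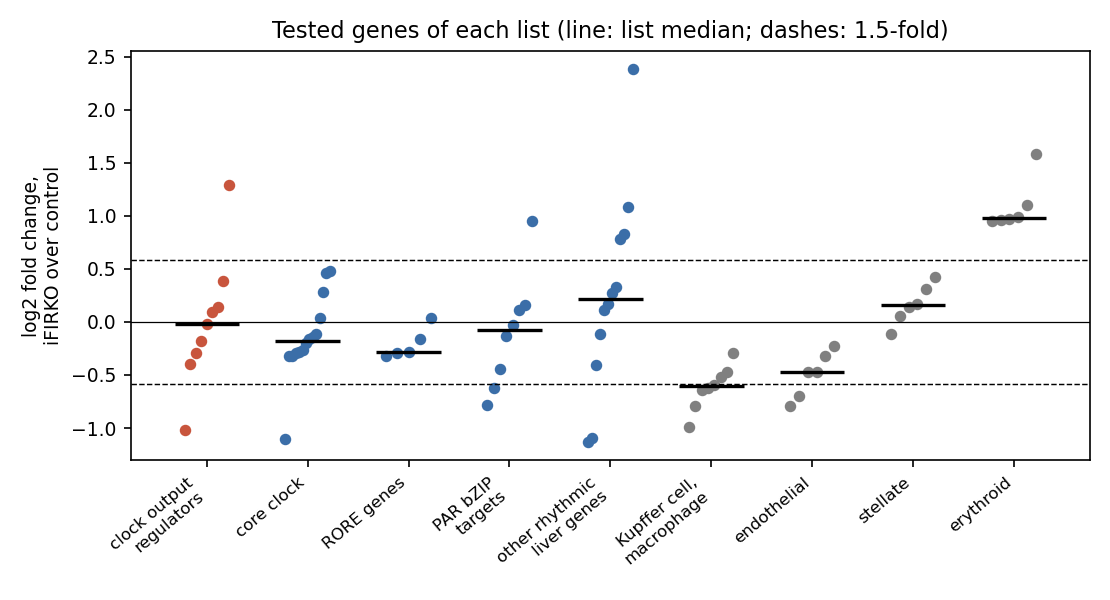
Log2 fold change (iFIRKO over control) of genes in the members' list, 4 related lists (blue) and 4 marker lists (grey), 1 point a gene, with the median of each list as a line and the 1.5-fold limits marked. The members, core clock and RORE lists have medians of -0.02, -0.18 and -0.28, and the other rhythmic liver genes range from -1.13 to 2.38.

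Markers of the cells a liver holds also differed between the 2 libraries. Over all genes compared, 4.46% were higher and 7.28% were lower. Of the 7 hepatocyte markers compared, 1 was lower (Apoa1) and none higher, and albumin had 4167154 and 3944155 normalized reads, so both libraries carried the marks of liver. All 8 Kupffer cell and macrophage markers lay below 0, 5 of them lower past the fold, and their sum went from 30092 in the control to 19564 in the iFIRKO library. Neutrophil markers summed to 643.2 and 236.1 (3 of the 3 compared lower) and B cell markers to 669.7 and 296.2 (3 of 4 lower). T and NK cell markers summed to 219.6 and 111.8 (1 compared, lower), and endothelial markers to 9174 and 6668 (2 of 6 lower). All 6 erythroid markers were higher, summing to 13455 and 27006. None of the 6 stellate or 5 cholangiocyte markers passed the fold (sums of 11472 and 12485, and of 2347 and 2026). The 5 adipocyte markers were listed at 0 in the control and summed to 12.08 in the iFIRKO library. Nfil3, Bhlhe40, Bhlhe41 and Rora are also expressed in immune cells, and the part of these marker differences in the members' values was not tested. Fewer cells of a type and less RNA per cell cannot be told apart in bulk liver.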

How the data were processed

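Total liver RNA from 1 control and 1 iFIRKO library was prepared with a stranded mRNA kit and sequenced on an Illumina NovaSeq by the authors, who deposited 1 file per library with log2 normalized reads for 53342 rows. The build was mm10 per the labels; the aligner, counter, annotation and normalization were not given in the sources used here. Values were raised to the power of 2. Read pairs were estimated from the steps between low values (1.987 and 2.013 normalized reads per pair). Of values under 50 pairs, 40.3% and 40.4% were whole within 0.01, so pairs are estimates and no count model was fitted. Rows at 0 made up 62.2% and 62.1%. The members and lists were chosen with earlier results of these data known. From each list up to 4 genes were named: those past 1.5-fold, the largest first, then the most abundant of the others. Exceptions are marked where they stand, and 1 gene of the core clock and RORE lists is not reported here. Positions and exon lengths came from GENCODE M21 (GRCm38) and promoters from RefSeq (GRCm38.p6). Intervals came from scipy 1.17.1 and figures from matplotlib 3.10.9, under Python 3.11.15 with pandas 2.3.3 and numpy 2.4.6. The steps were tested on simulated data that held counting error only. Changes were planted there only in genes well above the levels of Dbp, Bhlhe41 and Ciart, so calls at those levels were not tested. Alternatives changed the pseudocount, minimum, fold, scaling and promoter window.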

Additional observations from a re-analysis of the deposited data

How the results depend on the processing

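No paired analysis was possible because only 1 library stands in each group, and no replicate could be left out. The call of Dbp depends on its few reads: no member was lower (0) with a pseudocount of CPM 1, with the minimum required in both libraries, or with a minimum of CPM 5. No member was higher (0) with that last minimum, which Ciart does not reach. With a fold of 2, 1 member was higher and 1 lower. Scaling to hepatocyte markers (a log2 shift of 0.089) moved the members' median to 0.067 and Bhlhe40, which is the median, to the other side of 0. The members' median ranged from -0.046 to 0.067. Of 77 recomputed member values, 76 stayed within their intervals. That count includes settings that cannot move a value, namely the changes of minimum and the summing of rows that share a symbol. Dbp was left out of it under both stricter minimums, and Bhlhe41 and Ciart under a minimum of CPM 5. Over the scalings the median of all genes compared ranged from -0.017 to 0.096. Evening minus dawn ranged from 0.263 to 0.428. A scaling shifts both medians alike, so the scalings left it at 0.269 and do not test it. Counts of genes higher and lower were 371 and 576 with a pseudocount of CPM 1, 1960 and 2620 with no minimum, 288 and 440 with a minimum of CPM 5, and 209 and 267 with a fold of 2. With hepatocyte scaling 1 PAR bZIP target was lower, their median was 0.012, and Nr1i3 also turned (0.064). With a fold of 2 none of these targets was called and 2 other rhythmic genes were higher. For Dbp, Bhlhe41 and Ciart the counting interval alone spans more than a fold of 1.5.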
